A study of Mus musculus with 6 samples.

Results

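A set of 7 genes of the Nkx homeobox family, of 23235 gene symbols in the tables, was followed in the duodenum of adult mice. They were Nkx2-2, the gene that was engineered in the mutant animals, and Nkx2-3, Nkx2-5, Nkx2-6, Nkx3-2, Nkx6-2 and Nkx6-3. They were chosen by symbol and all 7 had a row in every library. RNA was sequenced from 3 control and 3 mutant mice, 1 library each, aged 6 weeks, with a mixed strain background. The tissue was the 2 cm of duodenum next to the stomach. The controls carried a floxed Nkx2.2 allele over a wild-type allele and no Cre. Controls 1 and 2 also had the Rosa26Tomato reporter allele and control 3 did not. The mutants, called TNint, had the genotype Nkx2.2flox/TN, with Villin-Cre/+ and Rosa26Tomato/+. All 6 animals therefore had 1 floxed allele. Villin-Cre is active in the intestinal epithelium, so the other tissues of a mutant kept the floxed allele beside the TN allele. Cre, the TN allele and the loss of the floxed copy in the epithelium all separate the groups, and their parts cannot be told apart. Nothing in the labels ties the animals to litters. P-values measure the spread between these 6 animals.

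Nkx proteins are transcription factors that bind DNA through a homeodomain. Many also hold a short TN (tinman) motif near the start of the protein, through which they recruit corepressors of the Groucho/Tle family. Nkx2.2 acts in the gut epithelium, where it directs the choice among enteroendocrine cell types, the hormone-producing cells of the gut. From what is known of the study, the TN allele carries a mutated form of this motif. Nkx2-3 is a factor of gut mesenchyme and spleen, Nkx3-2 of the mesenchyme of the stomach and of cartilage, and Nkx6-3 of the epithelium of the distal stomach and the proximal duodenum. Nkx2-5 and Nkx2-6 are known from the heart and the pharynx, and Nkx6-2 from neurons and oligodendrocytes.

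The TN motif is the part of Nkx2.2 that the mutant allele concerns, so its coding DNA is shown for each of the 7 genes, read from the mm9 reference with the GENCODE vM1 annotation. Capitals mark the 21 bases of the 7-codon core. The motif was searched for only before the homeobox, and in every gene it lay in exon 1. These are reference bases, and those of the TN allele itself were not analysed here.
Nkx2-2 (chr2:147011701-147011733, minus strand): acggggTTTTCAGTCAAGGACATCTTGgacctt
Nkx2-3 (chr19:43687018-43687050, plus strand): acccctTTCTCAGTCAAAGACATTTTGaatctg
Nkx2-5 (chr17:26978241-26978273, minus strand): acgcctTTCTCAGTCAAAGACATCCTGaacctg
Nkx2-6 (chr14:69789883-69789915, plus strand): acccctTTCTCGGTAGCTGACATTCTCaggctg
Nkx3-2 (chr5:42155124-42155156, minus strand): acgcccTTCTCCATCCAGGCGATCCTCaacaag
Nkx6-2 (chr7:146768241-146768273, minus strand): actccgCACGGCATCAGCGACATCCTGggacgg
Nkx6-3 (chr8:24264207-24264239, plus strand): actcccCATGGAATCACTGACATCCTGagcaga

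Of the 21 core bases, 18 were the same as in Nkx2-2 in Nkx2-3 and in Nkx2-5, 13 in Nkx3-2 and in Nkx6-3, 12 in Nkx2-6 and 11 in Nkx6-2. The translated motif pattern was found in the first 70 codons of 26 of 22737 protein-coding genes (0.114%). The pattern was made to take in this family, so its presence in the Nkx genes shown was set in advance. They were also searched over a different stretch, up to the homeobox. The percentage therefore cannot show that the motif is particular to these genes. The homeodomains were compared over 60 residues. Identity to Nkx2-2 was 78.3% for Nkx2-3, 76.7% for Nkx2-5, 73.3% for Nkx2-6, 63.3% for Nkx3-2, 43.3% for Nkx6-2 and 41.7% for Nkx6-3. The closest pairs were Nkx2-3 with Nkx2-5 at 93.3% and Nkx6-2 with Nkx6-3 at 91.7%.

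The levels of the 7 genes spanned a wide range. Values are FPKM, fragments scaled by transcript length and library size, so levels can be set side by side between genes. Over the 6 libraries the mean was 16.5 FPKM for Nkx6-3, 12.1 for Nkx2-3, 0.910 for Nkx2-2, 0.207 for Nkx3-2, 0.0253 for Nkx6-2 and 0.021 for Nkx2-5, and Nkx2-6 was listed at 0 throughout. The library values of Nkx6-3 (10.5 to 20.4) and Nkx2-3 (10.4 to 14.2) overlapped, and Nkx6-3 was the higher of both in 5 of 6 libraries. The mean of Nkx2-3 was 13.3 times that of Nkx2-2, with no overlap between libraries. Nkx2-2 (0.666 to 1.27) lay above Nkx3-2 (0 to 0.424) without overlap. Nkx6-2 and Nkx2-5 could not be ordered, since each rested on 3 or fewer reads over all 6 libraries. Nkx2-2, Nkx2-3, Nkx3-2 and Nkx6-3 passed the minimum mean of 0.1 FPKM and were tested.

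**Figure D1:**
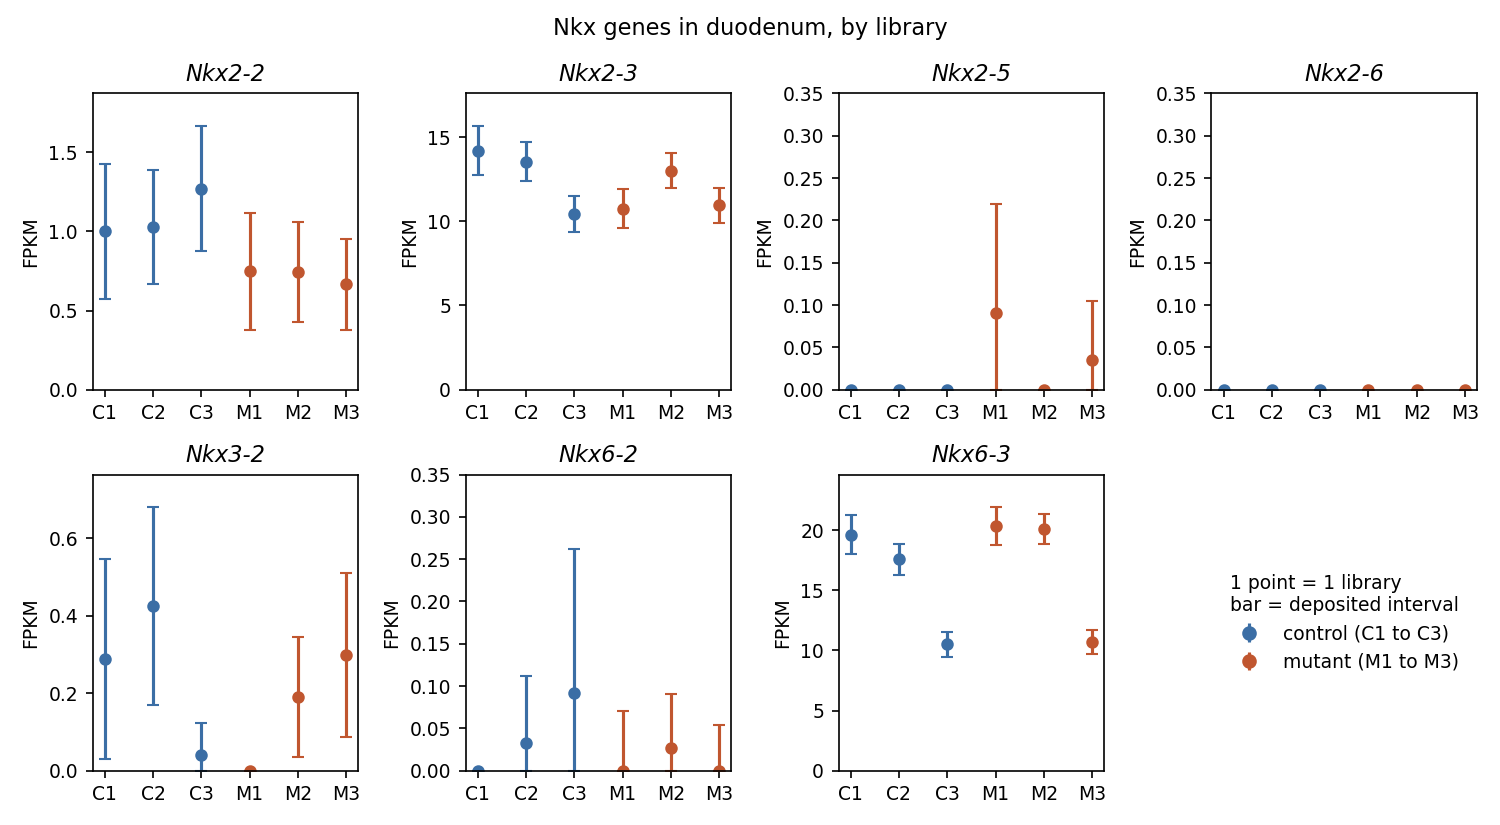
FPKM of the 7 Nkx genes (vertical axis, a separate linear scale from 0 in each panel) in the 3 control (C1 to C3) and 3 mutant (M1 to M3) libraries, with the confidence interval deposited by the authors as bars. Nkx2-2 is lower in each mutant than in each control, and Nkx6-3 is lowest in C3 and M3.

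Some facts of the libraries bear on several of these values. Reads implied by the deposited confidence intervals summed to between 14.21 and 25.91 M (megareads) per library. The intestinal epithelium markers were high and similar in both groups, with Vil1 (villin) between 630 and 699 FPKM. Muc5ac, the surface mucin of the stomach, was listed at 0 in every library. The 13 stomach genes summed to 38.1 to 690 FPKM in controls and 90.6 to 243 in mutants, most of it from Tff2, which duodenal Brunner's glands also express, and Gkn3. The 11 pancreatic acinar genes summed to 23.3, 353 and 8650 FPKM in controls 1, 2 and 3 and to 2230, 2450 and 9980 in mutants 1, 2 and 3. The 8 islet genes summed to 1.54 to 6.88 FPKM in controls and 4.50 to 8.35 in mutants, with Slc30a8 and G6pc2 at 0 throughout. Xist, the RNA of the inactive X chromosome, was at 34.0 FPKM in control 3 and 23.2 in mutant 3 and below 0.1 in the other 4 libraries. The part of pancreatic RNA, of sex and of the mixed strain background in the results below was not tested unless a value is given.

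Nkx2-2, the targeted gene (mm9 chr2:147003282-147012138, minus strand), was lower in the mutants, but the difference did not pass the test across all genes. It measured 1.00, 1.03 and 1.27 FPKM in controls 1, 2 and 3 and 0.748, 0.744 and 0.666 FPKM in mutants 1, 2 and 3. Every mutant lay below every control, a separation that 9.92% of the 15864 genes tested showed in this direction. The group means were 1.1 ± 0.149 (SD, n = 3) and 0.719 ± 0.0461 (SD, n = 3), a ratio of 0.654. On the scale of log2(FPKM + 0.1) the difference was -0.54 (SE 0.163), at an unadjusted p of 0.0126 and an adjusted p of 0.786 in limma with Benjamini-Hochberg adjustment. The exact two-sided permutation p was 0.10, the smallest that 3 against 3 allows. In this bulk tissue, fewer cells expressing a gene and less RNA per cell cannot be told apart.

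The depth behind Nkx2-2 was small. The values rested on about 22, 32 and 42 implied reads in controls 1, 2 and 3. In mutants 1, 2 and 3 they rested on about 16, 22 and 21. These counts are read from the deposited intervals, a reading checked only on genes with 1 transcript. Nkx2-2 has a pair, and its intervals may also hold the uncertainty of the split. Its counts are therefore rough and may be too low. The deposited intervals overlapped in 9 of 9 pairs of a control with a mutant library. The size of the difference moved with the scale and the input. It was -0.29 with a pseudocount of 1. It was -0.87 (SE 0.249) when limma's voom was run on the implied reads, so that value carries their limit. In the authors' deposited table, a DESeq comparison of read counts, the Nkx2-2 means were 27.6 in controls and 21.0 in mutants, with a log2 fold of -0.39, a p of 0.369 and an adjusted p of 1. The labels do not say which part of the gene Cre removes, and a read from the TN allele counts as a read of the gene.

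None of the 4 tested Nkx genes was called, and none of all genes was: limma called 0 of 15864 (0%). At an unadjusted p under 0.05, 922 genes differed (5.81%), of which 685 (4.32%) were lower and 237 (1.49%) higher in mutants. Nkx2-2 was 1 of the 685. That split depended on scaling: after median-ratio scaling it was 403 lower and 508 higher, and after quantile normalization 430 lower and 361 higher. Nkx2-2 kept its negative sign in both, at -0.50 and -0.43. The voom run also called 0 genes (976 at an unadjusted p under 0.05), and the authors' deposited table had 7 genes with an adjusted p under 0.05, none of them an Nkx gene. The median log2 fold change of the 4 tested Nkx genes was -0.28, beside -0.05 over all genes. It was -0.06 without control 2, -0.07 without mutant 1 and -0.16 without control 1, so it rests on single libraries.

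**Figure D2:**
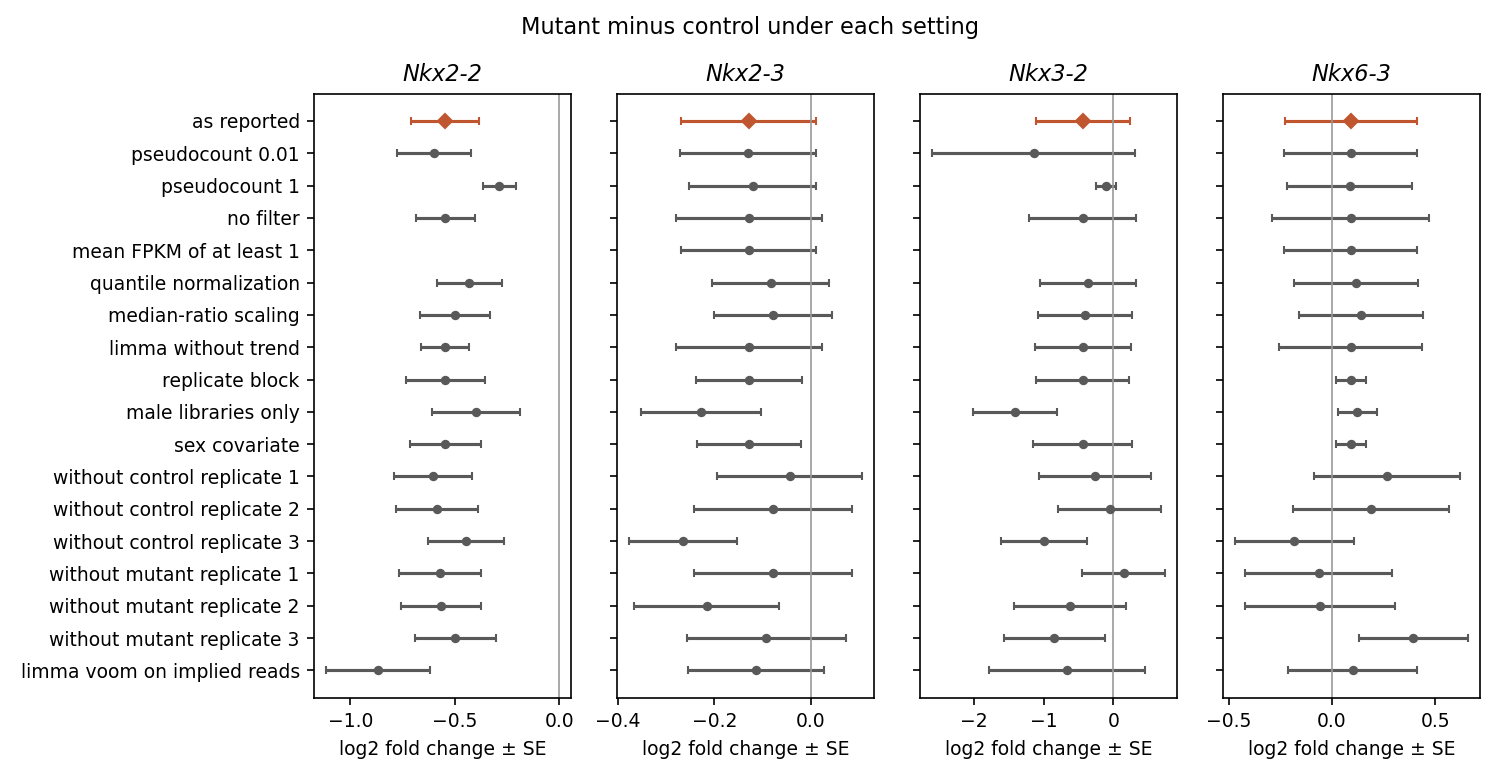
Log2 fold change, mutant minus control, with its standard error (horizontal axis, a separate scale in each panel) for the 4 Nkx genes that passed the minimum level, under each setting of the analysis (rows; the diamond is the value as reported). Nkx2-2 and Nkx2-3 stay below 0 in every setting drawn, and Nkx3-2 and Nkx6-3 cross 0 when single libraries are left out.

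The tables split Nkx2-2 into a pair of RefSeq transcripts that share the whole homeobox and the TN motif. They have the same exon 1 (chr2:147011496-147012138, 643 bases) and the same first 312 bases of exon 2 (chr2:147009982-147010293), which hold all 180 bases of the homeobox. NM_010919 reads on through exon 2 for a further 1094 bases (chr2:147008888-147009981). NM_001077632 splices instead to an exon 3 of 399 bases (chr2:147003282-147003680). Their coding frames hold 273 and 248 codons. Reads can be assigned to one transcript only past this point, so the junction is shown, with capitals for the bases after the shared part.
NM_010919: cccgggcggagaaagGTATGGAGGTGACGC
NM_001077632: cccgggcggagaaagCATTTCAAAACCGAC

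**Figure D3:**
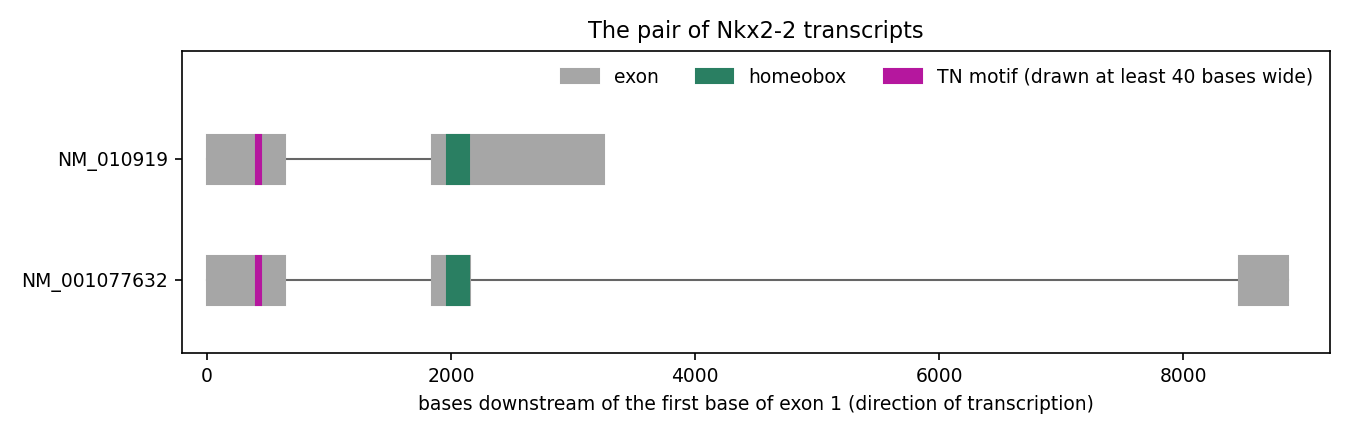
Exons of the pair of Nkx2-2 transcripts (grey boxes, introns as lines), drawn by distance in bases from the first base of exon 1, with the TN motif and the homeobox in colour. Both features lie in exons that the transcripts share, and they part after 312 bases of exon 2.

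NM_010919 was the major transcript in the controls, and it was the one of the pair that was lower in every mutant. It measured 0.809, 0.828 and 1.17 FPKM in controls 1, 2 and 3 and 0.406, 0.228 and 0.555 FPKM in mutants 1, 2 and 3. All mutants lay below all controls, as in 8.60% of the 19827 transcripts tested. Its log2 fold change was -1.10 (SE 0.339). The unadjusted p was 0.0175, a level that 3.22% of transcripts reached with lower values in mutants, and the adjusted p over all transcripts was 0.853 in limma. The exact permutation p was again 0.10, the smallest possible. With a pseudocount of 1 it was -0.47. Limma called 9 transcripts (0.0454%), none of them of an Nkx gene.

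NM_001077632 did not follow it. It measured 0.191, 0.201 and 0.104 FPKM in controls 1, 2 and 3 and 0.342, 0.516 and 0.111 FPKM in mutants 1, 2 and 3. Mutants 1 and 2 were above all controls, and mutant 3 lay within their range. The log2 fold change was 0.56 (SE 0.489, adjusted p = 0.855 in limma). These values rest on about 1.4 to 12.2 implied reads per library. The log2 fold change was 1.00 without mutant 3 and 0.23 without mutant 2.

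The share of NM_010919 in the summed FPKM of both transcripts was 80.9%, 80.5% and 91.8% in controls 1, 2 and 3. In mutants 1, 2 and 3 it was 54.3%, 30.6% and 83.3%. Mutant 3 fell inside the control range and the other mutants were below it. The mean was 84.4% ± 6.46 (SD, n = 3) in controls and 56.1% ± 26.4 (SD, n = 3) in mutants, a difference of -28.3 percentage points with an exact two-sided permutation p of 0.30. The difference was -41.9 points without mutant 3 and -15.6 points without mutant 2. The split is an estimate by the authors' software, and counts of junction reads were not among the values used here.

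**Figure D4:**
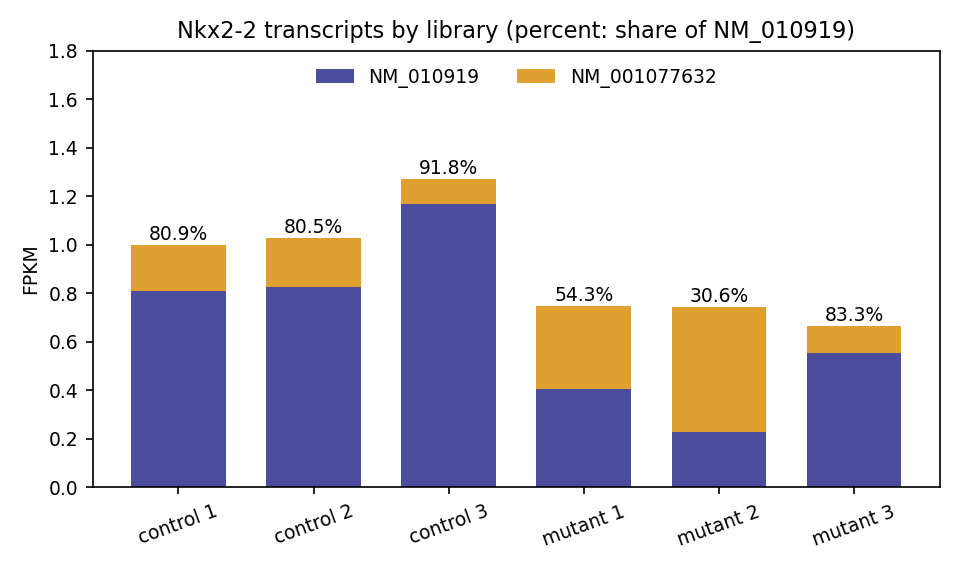
FPKM of the pair of Nkx2-2 transcripts in each library, stacked from 0, with the share of NM_010919 printed above each bar. The share is 80.5% to 91.8% in controls and 30.6% to 83.3% in mutants.

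An antisense gene, Nkx2-2as, overlaps Nkx2-2 over 2320 bases of the locus. It had less than 1 implied read in control 3 and was listed at 0 in the other libraries. The kit is not stated to keep the strand, so reads of Nkx2-2 and its antisense partner cannot be told apart in the overlap.

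Nkx2-2 works in a network of enteroendocrine transcription factors, and 17 of these were tested beside it. None was called. At an unadjusted p under 0.05, 3 were lower and 1 was higher in mutants, beside 4.32% and 1.49% of all genes. A negative log2 fold change was found in 14 of 17, beside 61.3% of all genes. That count was 10 of 17 without mutant 1, 11 in the male libraries and 12 under quantile or median-ratio scaling. Their median was -0.20, and it was -0.32 without mutant 2, -0.10 after quantile normalization and -0.08 with a pseudocount of 1. Lmx1a, a factor of serotonin-producing enterochromaffin cells, was at 0.680, 0.696 and 0.596 FPKM in controls and 0.267, 0.409 and 0.278 in mutants (log2 fold change -0.87, SE 0.211, adjusted p = 0.786 in limma). Neurod1, a general enteroendocrine differentiation factor, was at 2.11, 2.32 and 2.23 FPKM in controls and 1.20, 1.66 and 1.75 in mutants (-0.52, SE 0.165). In both genes, named for a small p in their list, every mutant was below every control, as in 9.92% of all genes.

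Measured against the mean of these 17 factors within each library, Nkx2-2 was lower in mutants. The list is mixed and includes Pdx1, at 59.9 to 83.1 FPKM, which is not confined to enteroendocrine cells. The ratio therefore does not hold the number of these cells constant. Lmx1a at -0.87 and Neurod1 at -0.52 were below or near Nkx2-2 at -0.54, and 3 of the 17 were above 0. The log2 ratio was -0.05, -0.11 and 0.13 in controls 1, 2 and 3 and -0.20, -0.46 and -0.46 in mutants 1, 2 and 3. The groups did not overlap. The difference was -0.36, with an exact two-sided permutation p of 0.10, the smallest possible. It was -0.20 with a pseudocount of 1.

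Among 14 enteroendocrine cell products, 6 were lower and 2 higher in mutants at an unadjusted p under 0.05, beside 4.32% and 1.49% of all genes. A negative log2 fold change was found in 8 of 14, beside 61.3% of all genes. The median was -0.21, and -0.11 without mutant 1. Their summed level was 607, 714 and 608 FPKM in controls and 674, 815 and 712 in mutants, so the sum was not lower in mutants. The 2 higher products, named after their values were seen, were the hormones Cck (cholecystokinin), at 63.3 ± 11.5 and 115 ± 22.9 FPKM (SD, n = 3 each; 0.85, SE 0.178), and Ghrl (ghrelin), at 64.4 ± 7.75 and 109 ± 40.5 (0.70, SE 0.249). Tac1, the precursor of substance P in enterochromaffin cells, had the smallest p. It was at 8.01, 8.85 and 8.81 FPKM in controls and 3.99, 4.42 and 4.73 in mutants (-0.95, SE 0.099, adjusted p = 0.255 in limma). Chga, chromogranin A of secretory granules, was at 32.3, 40.2 and 35.9 FPKM in controls and 13.2, 18.3 and 14.9 in mutants (-1.23, SE 0.139, adjusted p = 0.284). Chga passed the test when the replicate number was a block (adjusted p = 0.0308 in limma). Pyy, peptide YY, was at 9.37, 14.8 and 9.46 FPKM in controls and 2.97, 5.66 and 2.39 in mutants (-1.65, SE 0.331, adjusted p = 0.786). For Tac1, Chga and Pyy, named for the smallest p of their list, the mutants were all below the controls, as in 9.92% of all genes.

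The genes of the proteins that the TN motif is known to recruit, the Groucho/Tle corepressors with histone deacetylase and DNA methyltransferases, had small differences in both directions. Of 10 tested, none passed even an unadjusted p of 0.05, 5 were higher and 5 lower, and the median was -0.04, or 0.01 after median-ratio scaling. Tle4, a Groucho corepressor, had the smallest p, with means of 18.7 ± 0.740 and 17.0 ± 1.07 FPKM (SD, n = 3 each, control and mutant; -0.14, SE 0.076). The de novo DNA methyltransferase Dnmt3a was at 6.17 ± 0.338 and 5.38 ± 0.676, and the maintenance enzyme Dnmt1 at 13.6 ± 1.41 and 12.6 ± 1.37.

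Nkx2-3, the mesenchymal member (mm9 chr19:43686815-43690382, plus strand), was well expressed and similar in both groups. It measured 14.2, 13.5 and 10.4 FPKM in controls 1, 2 and 3 and 10.7, 13.0 and 10.9 FPKM in mutants 1, 2 and 3. All 3 mutants lay within the control range. With 342 to 638 implied reads per library, its depth was far above that of Nkx2-2, and 4 of 9 pairs of deposited intervals overlapped. The log2 fold change was -0.13 (SE 0.140, adjusted p = 0.847 in limma). It was -0.26 without control 3 and -0.04 without control 1. The authors' deposited table gave means of 469 and 443 for controls and mutants and a log2 fold of -0.08 (p = 0.719).

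Smooth muscle genes, from a tissue that arises in the mesenchyme where Nkx2-3 is known to act, were lower in mutants together, without a call. All 10 had a negative log2 fold change, beside 61.3% of all genes, with a median of -0.44. An unadjusted p under 0.05 was found for 9, beside 4.32% of all genes lower at that level. Under median-ratio scaling 4 of the 10 had such a p, beside 403 of 15860 genes. Myh11, smooth muscle myosin heavy chain, was at 70.6, 73.5 and 86.1 FPKM in controls and 52.3, 49.5 and 58.0 in mutants (-0.52, SE 0.101, adjusted p = 0.786 in limma). Synpo2, an actin-binding protein, was at 9.72 ± 1.09 and 6.93 ± 0.129 FPKM (SD, n = 3 each), and Acta2, smooth muscle actin, at 198 ± 21.5 and 149 ± 12.5. The log2 ratio of Nkx2-3 to the mean of the 10 muscle genes was -1.77, -2.08 and -2.56 in controls and -1.97, -1.50 and -2.05 in mutants. The groups overlapped, and the difference of 0.30 had an exact two-sided permutation p of 0.40. It was 0.09 without control 3, 0.13 without mutant 2 and 0.48 without control 1.

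Other genes of the wall were not called either. Of 16 mesenchymal transcription factors tested, 1 was lower at an unadjusted p under 0.05, beside 4.32% of all genes, and the median was -0.11. That gene was Hand2, a factor of gut muscle and nerve, at 2.00, 2.13 and 2.76 FPKM in controls and 2.03, 1.38 and 1.49 in mutants (-0.47, SE 0.195), and mutant 1 lay just above control 1. Meis1, a homeobox cofactor, was at 2.17 ± 0.182 and 1.75 ± 0.297 FPKM, and Myocd, a coactivator of muscle genes, at 0.726 ± 0.132 and 0.542 ± 0.0972 (SD, n = 3 each, control and mutant). Of 15 hedgehog and BMP genes, which carry the signals between gut epithelium and mesenchyme, none reached an unadjusted p of 0.05, and the median was -0.13. The hedgehog inhibitor Hhip was at 5.06 ± 0.225 and 4.53 ± 0.126 FPKM, the transducer Smo at 4.95 ± 0.139 and 4.46 ± 0.0542, and the BMP target Id3 at 135 ± 17.0 and 152 ± 17.8.

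Fibroblast and matrix genes had a median of -0.07, which was 0.03 without control 1 and 0.03 without mutant 3. Of the 10, 2 were lower at an unadjusted p under 0.05, beside 4.32% of all genes. These were Postn (periostin), at 10.6 ± 0.344 and 8.56 ± 0.125 FPKM, and Lum (lumican), at 12.5 ± 2.35 and 9.47 ± 0.708. Fn1, fibronectin, was at 23.0 ± 3.61 and 18.9 ± 1.87. Of 13 genes of enteric neurons and glia, 2 were lower, with a median of -0.16. The synaptic gene Snap25 was at 3.16 ± 0.428 and 2.11 ± 0.425 FPKM and the neuronal tubulin Tubb3 at 3.02 ± 0.130 and 2.26 ± 0.622 (SD, n = 3 each, control and mutant).

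Genes of endothelium and of gut lymphoid tissue were tested because Nkx2-3 is known to control Madcam1, the gut address molecule for lymphocytes. Of 10 genes, 1 was lower at an unadjusted p under 0.05, beside 4.32% of all genes, and the median was -0.18. All 10 were below 0, beside 61.3% of all genes, and 7 of 10 were under quantile or median-ratio scaling. The median was -0.08 without control 3. That gene was Ltb (lymphotoxin beta), at 5.61, 5.40 and 7.58 FPKM in controls and 3.31, 4.21 and 4.19 in mutants (-0.65, SE 0.165). Lta (lymphotoxin alpha) was at 0.219 ± 0.0405 and 0.127 ± 0.0672 FPKM and the endothelial receptor Kdr at 9.37 ± 1.78 and 8.21 ± 0.758 (SD, n = 3 each). Madcam1, named after its values were seen, was at 1.70, 2.07 and 2.92 FPKM in controls and 1.13, 2.88 and 1.67 in mutants, with overlapping groups.

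Nkx3-2 (mm9 chr5:42152722-42155459, minus strand) was near the limit of detection. It measured 0.289, 0.424 and 0.0411 FPKM in controls 1, 2 and 3, from 5, 11 and 1 implied reads. In mutants 1, 2 and 3 it was 0, 0.190 and 0.299 FPKM, from 0, 6 and 8 reads. The groups overlapped, and the log2 fold change was -0.44 (SE 0.675, adjusted p = 0.904 in limma). Its direction turned to 0.15 when mutant 1, the library at 0, was left out, and the value was -1.41 in the 4 libraries without Xist. In the authors' deposited table its means were 8.01 and 5.40 (p = 0.549).

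Nkx3-2 and its partners are known from the pyloric sphincter, the muscle ring at the end of the stomach. Of 5 pyloric sphincter genes, 4 were tested and none reached an unadjusted p of 0.05, with a median of -0.17. Six2, which is known to mark the sphincter, was below the minimum level, at 0 to 0.0531 FPKM. The BMP antagonist Grem1 was at 8.68 ± 0.277 and 6.81 ± 2.00 FPKM, Sox9 at 6.26 ± 0.686 and 5.51 ± 0.450, and Bmp4 at 11.0 ± 1.71 and 9.81 ± 1.52 (SD, n = 3 each, control and mutant).

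Nkx6-3 (mm9 chr8:24263743-24269420, plus strand) had the highest level of the 7 genes and varied widely between the animals of each group. It measured 19.6, 17.6 and 10.5 FPKM in controls 1, 2 and 3 and 20.4, 20.1 and 10.7 FPKM in mutants 1, 2 and 3. Control 3 and mutant 3 were the low libraries, and mutants 1 and 2 lay slightly above all controls. The log2 fold change was 0.09 (SE 0.320, adjusted p = 0.972 in limma), from 422 to 1052 implied reads per library. The SE was 0.0737 with the replicate number as a block and 0.0724 with sex as a covariate, and the adjusted p in limma was 0.686 and 0.700. The authors' deposited table gave means of 619 and 692 (log2 fold 0.16, p = 0.618).

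Nkx6-3 averaged 10.6 FPKM in the 2 libraries with Xist and 19.4 in the other 4. The same separation, with control 3 and mutant 3 both below the other 4 libraries, was found in 15.8% of the 15864 genes. These 2 libraries also had the highest sums of pancreatic acinar genes, so sex goes with the highest pancreatic RNA here. In the other 4 libraries the acinar sum ran from 23.3 to 2450 FPKM, with Nkx6-3 between 17.6 and 20.4. The part of each was not tested. The animals had a mixed strain background, and its part in this separation was not tested either. Ctrb1, a chymotrypsin precursor, was at 2170 FPKM in control 3 and 3030 in mutant 3 and between 4.61 and 727 in the others. Cela3b and Ctrl, further digestive enzymes, followed it, at 408 and 405 FPKM in control 3 against 0.625 and 0.838 in control 1. All 11 acinar genes were higher in mutants in mean, while 61.3% of all genes had a negative log2 fold change. The acinar median was 3.29, and none of the 11 reached an unadjusted p of 0.05 in limma. With the replicate number as a block 10 of 11 had such a p, beside 445 of 15864 genes higher at it. So did 10 of 10 tested in the male libraries (208 of 15848 genes) and 10 of 10 tested without control 3 (248 of 15832). The median was 1.10 without control 1 and 5.63 without control 3. The sum was higher in the mutant than in the control of each replicate number. None was called in any of these fits.

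**Figure D5:**
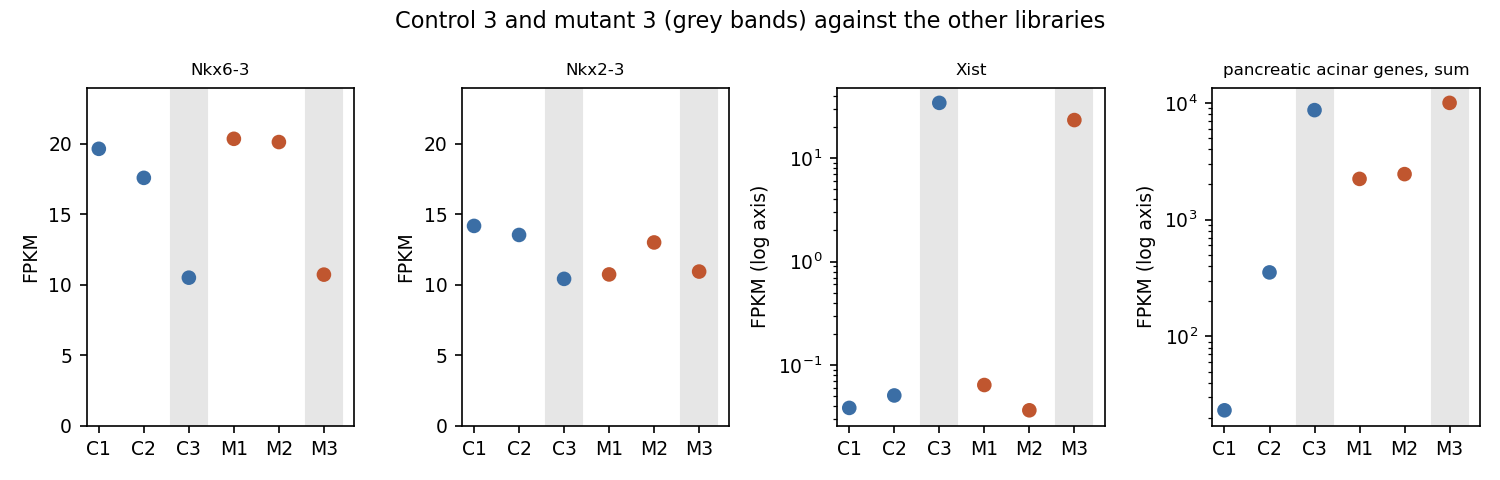
FPKM of Nkx6-3, Nkx2-3 and Xist and the summed FPKM of 11 pancreatic acinar genes in each library (the last pair of panels on log axes), with control 3 and mutant 3 on grey bands. Nkx6-3 is near 10.6 in both banded libraries and 17.6 to 20.4 in the others, and Xist and the acinar sum are highest in the banded libraries.

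Genes of the stomach, the other known site of Nkx6-3, followed its pattern only in part. The sum of the 13 stomach genes was lowest in control 2 among controls, at 38.1 FPKM. Among mutants it was lowest in mutant 3, at 90.6 FPKM, as Nkx6-3 was. Tff2, a mucus peptide not confined to the stomach, was at 510, 19.7 and 198 FPKM in controls and 174, 155 and 74.0 in mutants. Control 2 was lowest, and mutant 3 was the lowest mutant. Of 8 stomach genes tested none reached an unadjusted p of 0.05, with a median of 0.08. The sign of that median turned with single libraries, at 0.78 without control 1, -0.47 without control 2, -0.08 without control 3 and -0.42 without mutant 1, and it was -0.64 over the 5 genes with a mean of at least 1 FPKM. Tff1, another such peptide, was at 0.530, 0.530 and 0.589 FPKM in controls and 2.23, 0.452 and 1.72 in mutants. Gast, the hormone gastrin, was at 0.290, 0 and 0.412 FPKM in controls and 0.976, 0.475 and 0.187 in mutants, and Pgc, a pepsinogen, at 2.52 ± 1.20 and 1.57 ± 1.03 (SD, n = 3 each). Pgc was lowest in control 2 among controls, at 1.57 FPKM, and in mutant 3 among mutants, at 0.625 FPKM.

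Nkx2-2 is also a factor of pancreatic islets, and islet hormones were low. Of 5 islet genes tested none reached an unadjusted p of 0.05. Iapp, islet amyloid polypeptide, was at 0.878, 2.73 and 2.70 FPKM in controls and 2.96, 4.08 and 3.12 in mutants. Ins2 (insulin) was at 0, 1.42 and 2.95 FPKM in controls and 0.992, 0.859 and 3.82 in mutants, and Ins1 at 0.437 or less in all libraries. The epithelial genes were level, with a median of 0.01 over 10 genes. Cdx1 was at 53.5 ± 3.31 and 55.8 ± 4.39 FPKM, Hnf4a at 219 ± 23.9 and 209 ± 10.8, both intestinal transcription factors, and the keratin Krt8 at 1080 ± 112 and 1140 ± 86.8.

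The 3 remaining members were at or under the limit of detection. Nkx2-5 was listed at 0 in all controls and in mutant 2, at 0.0909 FPKM in mutant 1 and at 0.0349 in mutant 3, from 2 and 1 reads. A count of 0 allows up to 3 reads, which for Nkx2-5 is 0.0888 to 0.163 FPKM depending on the library. Nkx2-6 was listed at 0 in all 6 libraries, which allows up to 0.124 to 0.228 FPKM. Nkx6-2 was at 0, 0.0330 and 0.0921 FPKM in controls and 0, 0.0265 and 0 in mutants, about 1 read at most in any library. These limits cover counting error only. No fold change is given for these 3 genes.

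Further Nkx genes did not pass the minimum level. Nkx2-1, Nkx2-4, Nkx2-9 and Nkx6-1 were listed at 0 in all 6 libraries. Nkx6-1, like Nkx2-2, is a factor of insulin-producing cells. Nkx1-2 was at 0.0419, 0.0839 and 0 FPKM in controls and 0, 0.0687 and 0.135 in mutants, from 0 to 5 reads.

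The genes whose pattern over the 6 libraries was most like that of each tested member were taken from 12510 genes with a mean of at least 1 FPKM, by Pearson's r of log2(FPKM + 0.1). This is a description over 6 points that share their libraries. For Nkx2-2 they were Scyl2 (r = 0.991), Slc22a17 (0.985), Flna (0.984), Atf2 (0.984) and Tpbg (0.983). Flna, the actin cross-linker filamin A, was at 42.1, 43.2 and 48.3 FPKM in controls and 31.9, 33.7 and 32.0 in mutants, so like Nkx2-2 it was highest in control 3. Tpbg, a surface glycoprotein, was at 1.23, 1.32 and 1.52 in controls and 0.760, 0.824 and 0.740 in mutants.

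For Nkx2-3 the most alike genes were Traf4 (r = 0.998), Rad18 (0.990), 2200002K05Rik (0.988), Top3a (0.988) and Lig1 (0.986). Rad18, Top3a and Lig1 are known for DNA repair and replication, and the DNA ligase Lig1 was at 16.9, 16.1 and 12.0 FPKM in controls and 12.9, 14.7 and 12.8 in mutants. For Nkx3-2 they were Pla2g6 (0.987), Tbc1d17 (0.986), Tk1 (0.985), Pdpn (0.985) and 3110001D03Rik (0.985).

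For Nkx6-3 they were Rnd2 (r = 0.998), Defa6 (0.998), Proz (0.997), Kdm5d (0.992) and Slc39a9 (0.990). Kdm5d lies on the Y chromosome, with 4.50 to 6.70 FPKM in the 4 libraries without Xist and 0 and 0.00871 in control 3 and mutant 3. Defa6, an antimicrobial alpha-defensin of the kind made by Paneth cells, was at 343, 169, 792 and 538 FPKM in controls 1 and 2 and mutants 1 and 2 and near 0 in control 3 and mutant 3. Rnd2, a small GTPase, was at 33.0, 29.4 and 17.7 FPKM in controls and 33.5, 33.7 and 17.1 in mutants.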

How the data were processed

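RNA of 6 duodenum libraries was analysed. The submitters' processing notes name the build mm9 and CASAVA 1.8.2, DESeq, TopHat and Cufflinks, the last 3 with versions not given in the sources used here. The authors deposited, per the file headers, FPKM with confidence intervals per gene and per RefSeq transcript, and coverage (a signal of mean read depth) per transcript. The authors' deposited table holds DESeq group means (counts divided by size factors, a signal), the fold as a ratio, its log2 value and p-values.

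Of 23699 gene rows, 15864 had a mean of 0.1 FPKM or more and were fitted with limma 3.58.1 (R 4.3.3) on log2(FPKM + 0.1) with a trended prior, no rescaling and no covariate, with Benjamini-Hochberg adjustment and a threshold of 0.05; 7835 rows were below the minimum. All 19827 transcripts above the same minimum were fitted likewise. Single values were compared by exact two-sided permutation over the 6 libraries. Implied reads came from the deposited intervals, whose upper bound was read as 2 standard errors above the value; for genes with 1 transcript and under 500 reads, 88.2% to 88.5% of these fell within 0.05 of a whole number. Sex was read from Xist (above or below 1 FPKM).

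The members and the 17 lists were chosen with earlier results of these data known. Named were the 7 members, the other Nkx genes with a row, the 3 genes per list whose unadjusted p was smallest, and the 5 genes most correlated with each tested member; a few genes taken by this rule are not reported here. The TN motif was searched in translated codons with a pattern made to take in this family: phenylalanine, histidine or tyrosine, then serine, glycine or threonine, then isoleucine, valine or leucine, any residue, aspartate, alanine or glutamate, isoleucine and leucine. The pair of Nkx2-2 RefSeq transcripts was matched to GENCODE vM1 exons by locus and length, on NCBIM37, which is mm9.

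Groups share replicate numbers in the titles. Deviations of same-numbered libraries from their group means correlated at 0.106, 0.207 and 0.389, and control 1 correlated with mutant 2 at 0.127. By these values alone the block was counted as a pairing in an alternative fit; the reported fit has no block. The labels name no shared litter or day, and control 3 and mutant 3 also share Xist, high pancreatic RNA and Defa6 near 0. Alternatives covered pseudocounts, filters, scaling, the prior, the block, sex, voom on implied reads and each library left out.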

Additional observations from a re-analysis of the deposited data

How the results depend on the processing

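The depth limits Nkx2-2 and Nkx3-2, whose values rest on about 42 implied reads or fewer per library. The Nkx2-2 difference stayed negative and uncalled in all 16 alternatives, from -0.87 to -0.29, with adjusted p from 0.606 to 0.991 in limma. The -0.87 came from voom on the rough implied reads, and the next lowest was -0.60 without control 1. The mean of Nkx2-2 is under 1 FPKM, so it could not be tested at that minimum. Nkx2-3 stayed negative and uncalled in all 17. With 1 library left out, Nkx3-2 ranged from -0.999 to 0.149, turning only without mutant 1, and Nkx6-3 ranged from -0.181 to 0.395. Nkx6-3 turned to -0.18 without control 3, -0.065 without mutant 1 and -0.056 without mutant 2.

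The number of genes called was 0 and became 2 with the replicate block (Chga and Mt1), 1 in the male libraries only (Mir719), 1 with a sex covariate (Mt1), which was chosen after seeing the data, and 0 to 3 when 1 library was left out (2 without control 2, 3 without mutant 1 and 2 without mutant 2). The 9 transcript calls became 3 with a pseudocount of 1, 5 with no filter, 0 at a mean FPKM of at least 1, 18 without the trend, 0 with the replicate block, 0 in the male libraries, 4 with the sex covariate and 0 to 12 with 1 library left out (0 without control 1 and 0 without mutant 3). The cause was not tested. The replicate block gave -0.54 (SE 0.188, adjusted p = 0.606 in limma) for Nkx2-2 and changed no call other than those above. The share of NM_010919 and both log2 ratios kept their direction in every alternative, the ratio of Nkx2-3 to smooth muscle from 0.0854 to 0.479 with 1 library left out; 3 libraries against 3 cannot pass the threshold in their exact tests. With 1 library left out, list medians ranged from -0.134 to -0.048 (mesenchymal factors), -0.251 to -0.07 (pyloric), -0.142 to -0.043 (hedgehog and BMP), -0.536 to -0.362 (smooth muscle) and -0.307 to -0.13 (neurons and glia).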
